A study of Mus musculus with 20 samples.

Results

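The gamma crystallins were followed in mouse lenses that lacked E2F1, E2F2 and E2F3 or E2F2 alone, before birth at E17.5 and at birth (P0). Members were all probe sets of the array whose platform annotation names Cryga, Crygb, Crygc, Crygd, Cryge, Crygf, Crygn or Crygs, including those that name several genes. The rule found 8 probe sets of 45101, and they cover 7 of the 8 genes, since none names Cryge, out of 19324 genes that the array names. RNA from both lenses of a mouse was hybridised to 1 Affymetrix array, with 5 arrays in each of 4 groups and 20 in all. Control lenses were labelled E2F2-/-, at E17.5 or at P0. Lenses labelled triply deficient (TKO) were Cry-Cre E2F1-/- E2F2-/- E2F3f/f, again at E17.5 or at P0. All 4 groups thus lack E2F2, and the Cry-Cre transgene, by its name driven by a crystallin promoter, was present in the TKO groups only. E2F3 is floxed, so its loss is limited to cells in which Cre acted. The labels give no litter, sex or strain background, and p-values measure the spread between these arrays. The stated aim was to find the events behind the collapse of neonatal lenses that lack the 3 factors.

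Gamma crystallins are small soluble proteins that, with the alpha and beta crystallins, fill the fibre cells of the lens and give it transparency and refractive power. Cryga to Crygf are closely related genes that fibre cells express strongly as they leave the cell cycle and elongate. Crygs lies elsewhere in the genome and is best known from the cortical fibres of the maturing lens, and Crygn is related to both the beta and the gamma crystallin families. Maf, Sox1, Sox2, Prox1, Pax6 and retinoic acid receptors are among the best known regulators of crystallin genes. The E2F proteins regulate genes of DNA replication and cell division.

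Cryge, Crygd, Crygc, Crygb and Cryga follow each other in the RefSeq gene order of chromosome 1, with the pseudogene Gm7329 between Crygb and Cryga. Crygf closes the stretch, and 14 annotated genes lie between Cryge and Crygf, the other gamma crystallins included. RefSeq promoters (assembly GRCm38.p6) matched all 8 genes by symbol. The 90 bases before each annotated start are shown because they tell a reader how alike these genes are just before transcription begins. They lie outside the transcript, so they do not show which genes an array can separate. They are written 5′ to 3′ on the strand of the gene, with capitals for the letters TATATA or TATAAA and for TTTGTG.
Cryga: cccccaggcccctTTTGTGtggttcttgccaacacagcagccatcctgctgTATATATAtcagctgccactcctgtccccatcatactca
Crygb: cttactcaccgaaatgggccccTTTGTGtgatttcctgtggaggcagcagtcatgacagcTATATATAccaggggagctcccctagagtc
Crygc: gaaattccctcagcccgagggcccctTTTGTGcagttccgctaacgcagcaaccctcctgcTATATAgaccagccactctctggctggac
Crygd: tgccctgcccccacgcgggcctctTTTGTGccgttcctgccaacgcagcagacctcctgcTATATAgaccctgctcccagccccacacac
Cryge: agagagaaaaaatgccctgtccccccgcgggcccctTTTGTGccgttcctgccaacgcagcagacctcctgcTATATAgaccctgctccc
Crygf: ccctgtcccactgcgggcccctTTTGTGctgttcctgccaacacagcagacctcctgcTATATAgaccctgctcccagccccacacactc
Crygn: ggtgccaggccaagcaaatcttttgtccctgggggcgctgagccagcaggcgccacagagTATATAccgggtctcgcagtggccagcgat
Crygs: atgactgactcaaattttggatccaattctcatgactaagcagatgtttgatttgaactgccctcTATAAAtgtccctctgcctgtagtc

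These stretches lie at chr1:65103364-65103453 for Cryga, chr1:65082291-65082380 for Crygb, chr1:65073533-65073622 for Crygc, chr1:65063441-65063530 for Crygd and chr1:65051164-65051253 for Cryge, all on the minus strand. Crygf lies on the plus strand at chr1:65926432-65926521, and Crygn and Crygs lie on the minus strand at chr5:24757849-24757938 and chr16:22811411-22811500. Crygd, Cryge and Crygf were 93.3% to 96.2% identical in their 3 pairwise alignments, and the other 12 pairs of the 6 cluster genes were 61.5% to 79.8% identical. TATATA stood in 7 of the 8 promoters, all but that of Crygs, when 250 bases before the start were searched on both strands, and in 5.25% of all 32851 promoters. Its match nearest the start began between 18 and 37 bases before it. TTTGTG stood in the 6 cluster promoters, 54 to 77 bases before the start, and in 15.6% of all promoters. Both of these strings were chosen after the sequences had been read. TATAAA was found only in the Crygs promoter of the 8, 25 bases before the start, against 12.4% of all promoters.

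Letters of known regulators were searched in the same 250 bases on both strands. The letters TGCTGA, part of the Maf recognition element, stood in the promoters of Cryga, Crygc, Crygn and Crygs, 4 of 8, against 16.1% of all promoters. The Sox core ACAAAG stood in 2 of 8 (Cryga and Crygb, 16.5% of all), and its form ACAATG in 2 of 8 (Crygd and Crygs, 10.7% of all). The Crygb match to ACAAAG overlaps its TTTGTG. The CCAAT box stood in 2 of 8, Crygb and Crygs, against 33.8% of all promoters. The E2F strings TTTCCCGC, TTTGGCGC and GCGGGA stood in none of the 8, against 0.895%, 0.417% and 16.9% of all promoters. A match is a string of letters in this window and was not tested as a site.

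The probe sets differ in how many genes they name. Crygd (1419141_at), Crygs (1420453_at), Cryga (1422652_at), Crygn (1425286_at) and Crygb (1427264_at) each have a probe set that the annotation gives to that gene alone. The Crygf probe set (1429948_x_at) also names 1 gene, but its suffix marks probes that can bind other sequences. The share of its signal that comes from Cryge or Crygd transcripts was not tested. The probe set 1422674_s_at names both Crygc and Crygb, so that Crygc has no value of its own. The probe set 1454333_at names Cryga and its neighbour D630023F18Rik. That neighbour has 2 probe sets of its own, which read 4.07 to 4.55 (1439880_at) and 5.62 to 6.23 (1440468_at) over the 20 arrays. The shared probe set 1454333_at read 10.62 to 11.92, and levels of different probe sets cannot be ranked.

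All values are the deposited log2 expression values, with a lowest value of 1.72, array medians of 5.05 to 5.25 and array maxima of 14.91 to 15.01. The 7 probe sets other than 1454333_at were among the 50 highest of every array. Their values lay between 13.88 and 14.73, and each varied over the 20 arrays by 0.13 to 0.37 log2 units in all. The nearest to its array's maximum was 0.23 log2 units from it, and 24 to 38 probe sets of an array lay within 1 log2 unit of that maximum. The probe set 1454333_at ranked between 449 and 1366. The labels call the cell type epithelial cells, but whole lenses were dissected. All 9 lens fibre genes tested and all 5 lens epithelium markers lay above the array median in every control array.

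The top of the scale was also its quietest stretch. The median within-group SD was 0.043 for the 50 probe sets with the highest means, 0.097 for ranks 51 to 500, 0.143 for ranks 501 to 5000 and 0.162 for the rest. For the 7 top gamma crystallin probe sets it was 0.037. Bacterial and phage transcripts spiked in by the array protocol showed the same gradient. The cre probe set AFFX-r2-P1-cre-3_at, at a mean of 13.73, had a within-group SD of 0.039, and the dimmer AFFX-BioB-3_at, at 8.58, had one of 0.162. How much of a change in RNA is lost near the top of the scale was not tested, and a small log2 difference there does not show an equally small difference in RNA. Within that stretch the alpha crystallin Cryab, a small heat shock protein, read 14.11 to 14.27 in control lenses at E17.5 and 14.42 to 14.51 at P0.

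**Figure D1:**
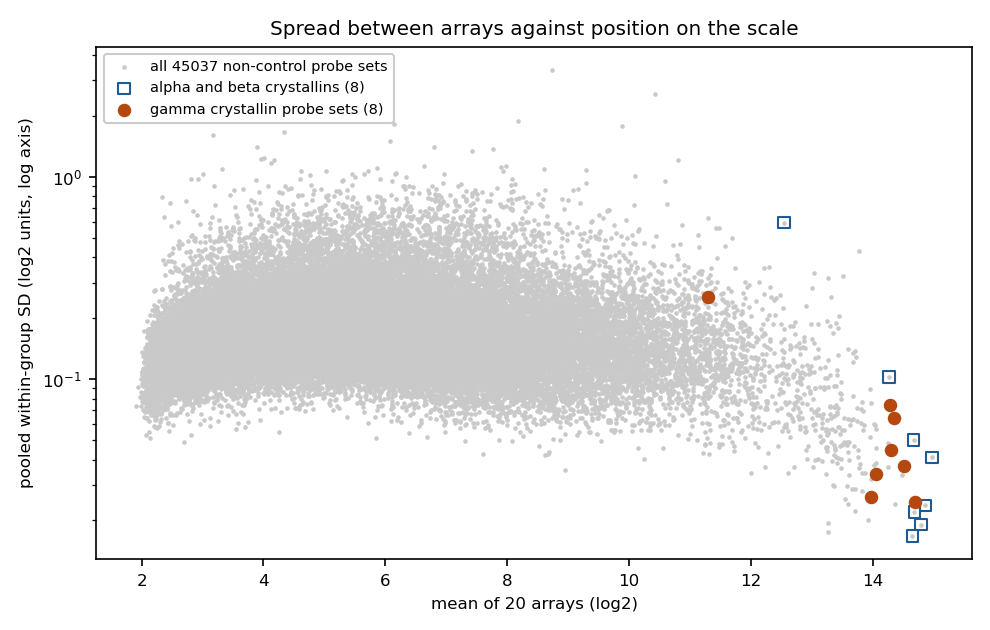
Pooled within-group SD of each of the 45037 non-control probe sets (vertical, log2 units on a log axis) against its mean over 20 arrays (horizontal, log2). The 7 highest gamma crystallin probe sets (filled circles) sit beside most alpha and beta crystallins (open squares) in the quiet corner above 13.88, and 1454333_at sits lower on the scale at a larger spread.

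Whether loss of the E2F factors changed gamma crystallin transcripts was asked first at E17.5, and no gamma crystallin probe set passed the test. All 8 passed the filter on low values and were tested by limma among 23865 probe sets, with Benjamini-Hochberg adjustment over all of them and a call at an adjusted p below 0.05. In that comparison 6.63% of all tested probe sets were called, 0 of 8 gamma crystallin probe sets were, and 0 of 8 had an unadjusted p below 0.05. The median change was -0.03 (TKO minus control, log2) beside -0.01 over all tested probe sets, with 7 of 8 below 0. Groups did not overlap for 10.7% of all tested probe sets and for 0 of 8 here. The smallest adjusted p was 0.512, for Crygn.

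Crygd, a cluster gene whose mutations cause inherited cataract, read 14.51, 14.49, 14.50, 14.49 and 14.51 in the control arrays at E17.5. The TKO arrays read 14.51, 14.45, 14.50, 14.52 and 14.38. TKO replicates 25 and 28 lay below the controls and the other 3 among or just above them (-0.03 ± 0.058 SE, adjusted p = 0.751). Crygb, another cluster gene, read 14.32, 14.27, 14.31, 14.32 and 14.30 in controls. In TKO lenses it read 14.28, 14.18, 14.27, 14.35 and 14.14. Replicates 25 and 28 were the low values and replicate 27 was above every control (-0.06 ± 0.062 SE, adjusted p = 0.552).

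Cryga, next to the pseudogene in the cluster, read 13.95 to 13.97 in control and 13.88 to 13.98 in TKO lenses, with a change of -0.03. The Crygf probe set read 13.99 to 14.06 in control and 13.94 to 14.03 in TKO lenses, with a change of -0.04. The probe set shared by Crygc and Crygb read 14.68 to 14.71 and 14.60 to 14.71, with a change of -0.02. In all 3 the lowest of the 10 values was that of TKO replicate 28. For Cryga, TKO replicate 25 (13.92) also lay below every control and replicate 27 (13.98) above every control. The remaining TKO values of the 3 probe sets overlapped the controls.

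Crygs was the only gamma crystallin probe set with a change above 0 at E17.5. It read 14.25, 14.11, 14.22, 14.27 and 14.28 in controls. The TKO lenses read 14.42, 14.13, 14.24, 14.25 and 14.28. A single TKO value, that of replicate 24, lay above the control range, and the change of 0.04 ± 0.071 (SE) was within the spread (adjusted p = 0.771).

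Crygn read 14.34, 14.25, 14.33, 14.29 and 14.32 in controls. The TKO arrays read 14.34, 14.23, 14.25, 14.32 and 13.98. Replicate 28 lay far below the other 9 arrays, and the change of -0.08 ± 0.077 (SE) became -0.02 without it. The probe set 1454333_at, which names Cryga and D630023F18Rik, read 11.40, 11.37, 11.49, 11.36 and 11.54 in controls. In TKO lenses it read 11.36, 10.62, 11.20, 11.92 and 11.20. These TKO values lay on both sides of the controls, with an SD of 0.465 (n = 5) against 0.076, and the change was -0.17 ± 0.187 (SE, 95% interval -0.58 to 0.24, adjusted p = 0.572).

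TKO E17.5 replicate 28 stood apart from the other arrays in these genes. It held the lowest of all 20 values for 6 of the 7 top gamma crystallin probe sets, the exception being Crygs, and its 7 values deviated on average by -0.12 from the mean of the E17.5 controls. The next lowest array, TKO E17.5 replicate 25, deviated by -0.059. In the same array the 7 endothelium markers had a mean level of 8.36 (6.28 to 6.77 in the other TKO E17.5 arrays), the macrophage markers 7.56 (5.86 to 6.54) and the red blood cell markers 6.74 (5.22 to 5.85). Its 5 lens epithelium markers were at 7.14 (8.21 to 8.83 in the others) and the gamma crystallin gene regulators at 7.89 (8.46 to 8.59). Fewer lens cells in a sample and less RNA per cell cannot be told apart in such bulk RNA, and the part of these other cell types in the low values was not tested. Without replicate 28, 0 of 8 were called and the median change was -0.02. Replicates 24 and 27 had the lowest pigment cell markers of the TKO E17.5 group, 6.19 and 5.96 against 7.68 to 8.16. Without both of them the median was -0.05 and 1 of 8 probe sets was called, 1454333_at at -0.43 (adjusted p = 0.0483), while Crygs stood at -0.01. That fit called 5488 of all 23865 tested probe sets.

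**Figure D2:**
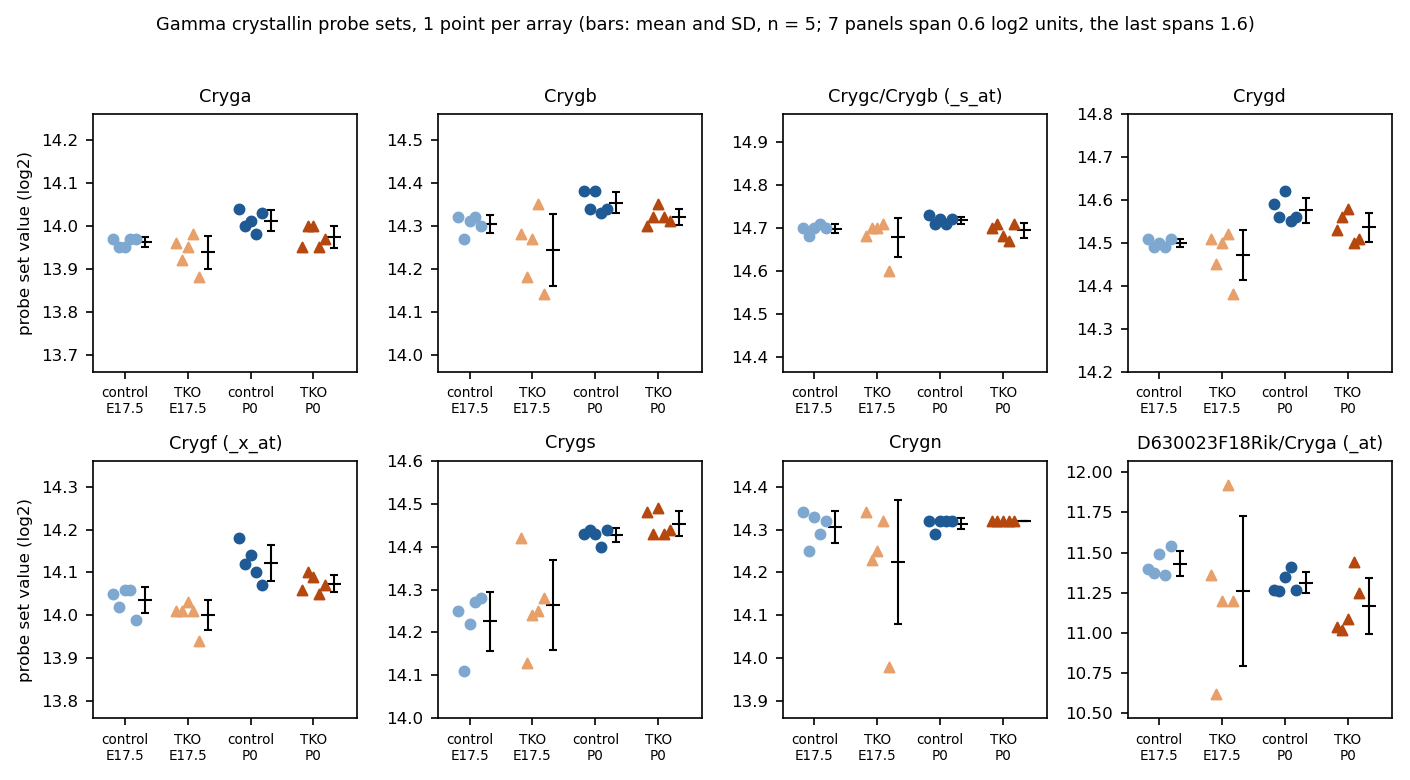
Deposited log2 value of each of the 8 gamma crystallin probe sets (vertical) in the 4 groups (horizontal), 1 point per array, with the mean and SD of 5 arrays as bars. Within a stage control (circles) and TKO (triangles) values overlap in every panel, the P0 values of Crygs lie above the E17.5 values of the same genotype, and TKO E17.5 has the largest SD in 7 of 8 panels, Crygf being the exception.

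At P0, the neonatal stage, again no gamma crystallin probe set passed. Of all tested probe sets 38.5% were called, and 0 of 8 gamma crystallin probe sets were, with 0 of 8 at an unadjusted p below 0.05. The median change was -0.03 beside -0.02 over all tested probe sets, and the largest rise was 0.03, for Crygs. Groups did not overlap for 24.5% of all tested probe sets and for 0 of 8 here. Of the 50 probe sets highest on the scale, 6% were called in this comparison, against 45.1% at ranks 501 to 5000.

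Crygd read 14.59, 14.56, 14.62, 14.55 and 14.56 in control lenses at P0. The TKO arrays read 14.53, 14.56, 14.58, 14.50 and 14.51. TKO replicates 17, 21 and 22 lay below all controls and the other 2 among them, and the change was -0.04 ± 0.049 (SE, adjusted p = 0.535). Crygf showed the next pattern of this kind, with 14.18, 14.12, 14.14, 14.10 and 14.07 in controls. The TKO group read 14.06, 14.10, 14.09, 14.05 and 14.07, with 2 values below every control and 3 inside the control range, and a change of -0.05 ± 0.049 (SE, adjusted p = 0.482).

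Cryga read 13.98 to 14.04 in controls and 13.95 to 14.00 in TKO lenses at P0, with a change of -0.03. Crygb read 14.33 to 14.38 and 14.30 to 14.35, also with a change of -0.03. The probe set of Crygc and Crygb read 14.71 to 14.73 and 14.67 to 14.71, with a change of -0.02. For these 3 the TKO range began below the control range and ended inside it. A two-sided exact permutation test over the 10 arrays of a single probe set gave p = 0.0159 for the pair Crygc and Crygb and 0.0635 for Cryga, Crygb and Crygf, unadjusted for the 8 probe sets examined, where 0.00794 is the smallest that 5 against 5 allows. The limma SE of about 0.05 for these probe sets is larger than their own SDs of 0.01 to 0.025. The fit draws the spread of each probe set toward a value common to all heights of the scale. A fit that lets the spread follow the height of the signal also called 0 of 8 at P0, with adjusted p from 0.144 to 0.921. It called 9320 of all 23865 tested probe sets.

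Crygs read 14.40 to 14.44 in controls and 14.43 to 14.49 in TKO lenses at P0, 0.03 ± 0.047 (SE) higher and not called (adjusted p = 0.697). Crygn read 14.32, 14.29, 14.32, 14.32 and 14.32 in controls and 14.32 in all 5 TKO arrays. Its change of 0.00 has a 95% interval from -0.10 to 0.10. The probe set 1454333_at read 11.27, 11.26, 11.35, 11.41 and 11.27 in controls. In TKO lenses it read 11.04, 11.02, 11.09, 11.44 and 11.25, so that 4 TKO values fell below every control and replicate 21 lay above them all. Its change was -0.14 ± 0.085 (SE, 95% interval -0.33 to 0.04, adjusted p = 0.206). Without TKO P0 replicate 21 it was called, at -0.21 (adjusted p = 0.0317), and it was then the single call among the 8. That array also held the lowest value of its group for 6 of the 7 top probe sets and the highest mean level of retina markers of the 20, 7.14.

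The 95% intervals bound what the arrays leave possible on this scale. At E17.5 those of the 7 top probe sets reached from -0.25 to 0.19 and that of 1454333_at from -0.58 to 0.24. At P0 they reached from -0.15 to 0.13 and from -0.33 to 0.04. A p that misses the threshold does not show equal levels. The difference of the TKO effects between the stages was tested with all 20 arrays, and 0 of 8 were called beside 0.402% of all tested probe sets. Those differences ran from -0.01 to 0.08, with a smallest adjusted p of 0.63, for Crygn, and 0 of 8 had an unadjusted p below 0.05.

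The change from E17.5 to P0 was the comparison in which a gamma crystallin probe set passed. In control lenses Crygs rose by 0.20 ± 0.044 (SE) on the log2 scale, a ratio of 1.15 (adjusted p = 0.00535). It was the 1 probe set of 8 called, beside 33.3% of all tested probe sets in either direction and 12.8% called higher. The 5 values at P0, 14.43, 14.44, 14.43, 14.40 and 14.44, all lay above the E17.5 values, 14.25, 14.11, 14.22, 14.27 and 14.28. The median change of the 8 was 0.05, beside -0.02 over all tested probe sets. Leaving out any one of the 10 arrays kept this call, at 0.17 to 0.22.

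The cluster genes Crygd, Crygf, Cryga and Crygb were higher at P0 in every control array without passing the limma test. Their changes were 0.07 (adjusted p = 0.147), 0.08 (adjusted p = 0.13), 0.05 (adjusted p = 0.337) and 0.05 (adjusted p = 0.322). With Crygs, the groups did not overlap for 5 of 8 probe sets, beside 22.7% of all tested probe sets. The probe set of Crygc and Crygb (0.02) and that of Crygn (0.01) overlapped between stages, and 1454333_at stood at -0.12 ± 0.052 (SE, adjusted p = 0.0928). With the spread following the height of the signal, 6 of 8 were called, beside 8149 of all 23865 tested probe sets. They were Crygd, Crygs, Cryga, Crygb and Crygf higher and 1454333_at lower, at adjusted p from 0.000243 to 0.0443.

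The spiked-in transcripts moved the same way between the stages. All 18 of their probe sets were higher at P0 in control lenses, by 0.06 to 0.23, and the mean over them by 0.14 (two-sided exact permutation test over 10 arrays, p = 0.0238, 0.0952 adjusted over 4 comparisons). The 4 cre probe sets, highest on the scale among them, were higher by 0.06 to 0.10. The rises of Crygd, Crygf, Cryga and Crygb, 0.05 to 0.08, lay within or below that range, and that of Crygs lay above it. When each array was centred on its spiked-in transcripts, which lowers every control stage change by 0.14, Crygs stood at 0.06 and was not called (adjusted p = 0.402). The other 7 then stood from -0.26 to -0.06, the median was -0.09, and 1454333_at was called lower (-0.26, adjusted p = 0.00855). With that centring 10197 of all 23865 tested probe sets were called. The direction of the stage change in Crygd, Cryga, Crygb, Crygf, Crygn and the probe set of Crygc and Crygb therefore depends on the scaling. The offset of 0.14 exceeds the mean rise of the 4 cre probe sets, 0.08, which lie nearest in height. Centring on those 4 alone was not tested. In the TKO comparisons the spiked-in mean differed by -0.01 at E17.5 and -0.03 at P0. The 4 cre probe sets differed by 0.03 to 0.05 at E17.5 and by -0.04 to 0.01 at P0. These 4 may also read the Cre transgene, which the TKO lenses alone carry. The part of the transgene in their values, and so in the spiked-in centring of TKO comparisons, was not tested.

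In TKO lenses no gamma crystallin probe set was called between the stages, beside 14.7% of all tested probe sets. Crygs read 14.42, 14.13, 14.24, 14.25 and 14.28 at E17.5 and 14.48, 14.43, 14.49, 14.43 and 14.44 at P0. The groups did not overlap, and the change of 0.19 ± 0.075 (SE) had an adjusted p of 0.104 and an unadjusted p of 0.027, the single one of the 8 below 0.05. It was called when all 20 arrays shared one fit (adjusted p = 0.0122), beside 7831 of all 23865 tested probe sets. It was also called when the spread followed the height of the signal (adjusted p = 0.0279), beside 3427 of them. With spiked-in centring it stood at 0.08 (adjusted p = 0.732), as the spiked-in mean was 0.12 higher at P0 in TKO lenses (two-sided exact permutation test, p = 0.278, 0.556 adjusted over 4 comparisons). Crygf, at 0.08, was the other probe set whose groups did not overlap, so that 2 of 8 did not, beside 11.7% of all tested. The median change was 0.07, beside -0.04 over all tested probe sets. This comparison and the others share arrays in pairs, so their values are not independent of each other.

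By group means, Crygs ordered as control E17.5 (14.23), TKO E17.5 (14.26), control P0 (14.43) and TKO P0 (14.45). All neighbours in this order overlapped, since TKO E17.5 replicate 24 (14.42) lay above the lowest control P0 value (14.40). Cryga, Crygb, Crygd and Crygf shared another order, TKO E17.5, control E17.5, TKO P0 and control P0, in which all neighbours overlapped for all 4 genes. For 1454333_at the order was TKO P0 (11.17), TKO E17.5 (11.26), control P0 (11.31) and control E17.5 (11.43), and all neighbours overlapped.

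**Figure D3:**
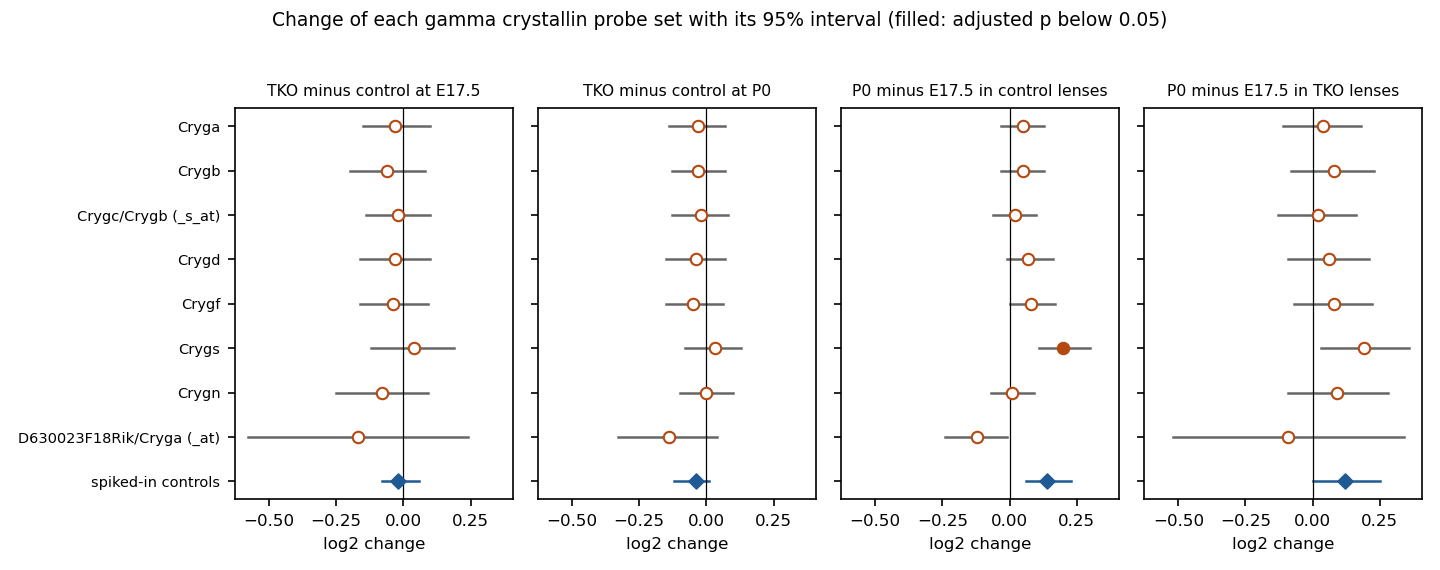
Log2 change of each gamma crystallin probe set (circles) with its 95% interval in 4 comparisons, and the median (diamond) and range of the 18 spiked-in control probe sets on the lowest line. The filled circle, Crygs between stages in control lenses at 0.20, is the single call, and the spiked-in controls stand at 0.14 in the same panel.

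The gamma crystallin probe sets also varied together within groups. Each array's deviation from its group mean was correlated between probe sets over the 20 arrays, as a description, since all points share an array and its scaling. Among the 7 top probe sets the 21 pairs had Pearson r from -0.09 to 0.84, with a median of 0.61. Crygd and Crygb were most alike (0.84), followed by Crygd with Cryga and Crygn with the probe set of Crygc and Crygb (both 0.82). Crygs stood apart, with r from -0.09 to 0.33 with the other 6. The probe set 1454333_at had its highest r with Crygb (0.63), and its r with the Cryga probe set, the gene it names, was 0.25. TKO E17.5 replicate 28 is an extreme point in most of these pairs.

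Outside the family, the genes whose deviations were most like the mean of the 6 probe sets that name a single gamma crystallin were Ell2 (r = 0.94), Mrpl37 (0.91), Atxn10, Lgi2 and Cog7 (each 0.90) and Psmc5, Zfyve21 and Vamp2 (each 0.89), over 20 arrays. Ell2 encodes a transcription elongation factor and Psmc5 a subunit of the proteasome. These values describe likeness across arrays only.

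**Figure D4:**
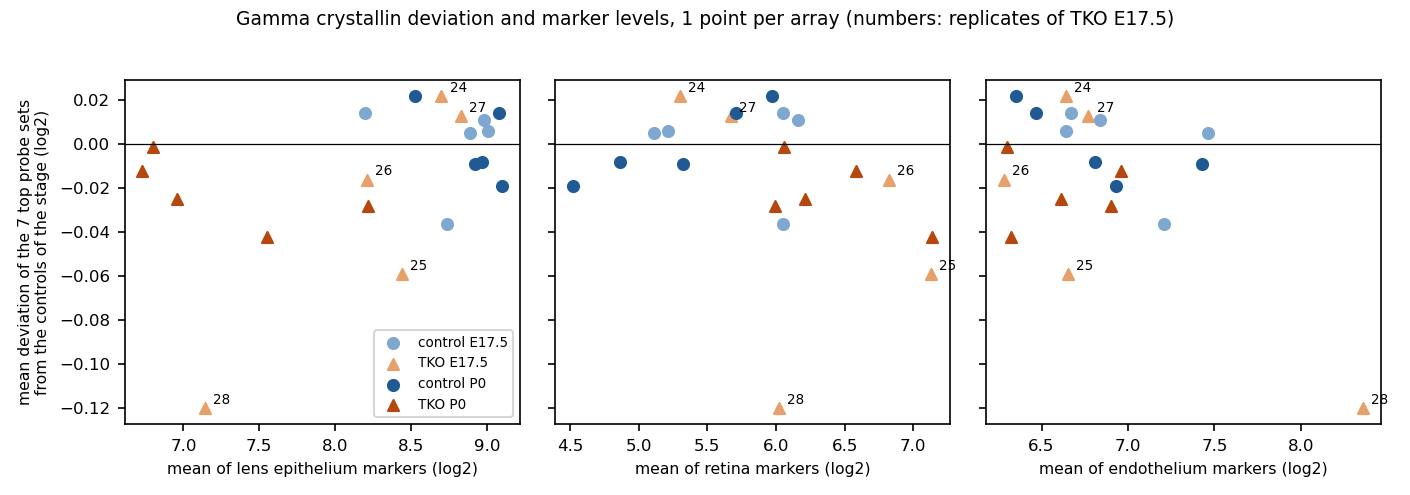
Mean deviation of the 7 top gamma crystallin probe sets from the controls of the same stage (vertical, log2) against the mean level of lens epithelium, retina and endothelium markers (horizontal, log2), 1 point per array. TKO E17.5 replicate 28, at -0.12, has the highest endothelium markers of the 20 arrays, and the TKO P0 arrays lie between -0.042 and -0.001 with low epithelium markers.

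Transcripts of the known regulators of crystallin genes were lower at P0 for most of the list. These regulators read lower on the scale than the 7 top gamma crystallin probe sets, and the 2 sets were not compared at equal height. At P0 6% of the 50 highest probe sets were called, against 45.1% at ranks 501 to 5000. Of 16 regulators tested, 10 were lower in TKO lenses and 2 higher, beside 19.7% and 18.8% of all tested probe sets, and their median change was -0.40 beside -0.02 over all. Sox1, an HMG-box factor needed for gamma crystallin expression and fibre elongation in mice, read 10.23, 10.08, 10.20, 10.10 and 9.95 in controls. The 5 TKO arrays read 9.26, 9.15, 9.22, 9.33 and 9.27, all below the controls (-0.87 ± 0.07 SE, adjusted p = 4.12e-05). Maf, a leucine zipper factor that binds crystallin promoters, read 12.42 to 12.59 in controls, and all 5 TKO values were lower, down to 11.20 (-0.92 ± 0.12 SE, adjusted p = 0.000406).

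Sox2 fell by 0.75 (adjusted p = 0.00409), Pitx3, a homeobox factor of the lens, by 0.61 (adjusted p = 0.00574), and the retinoic acid receptor gene Rarb by 0.56 (adjusted p = 0.00495). Six3, a homeobox factor of early eye development, fell by 0.39 (adjusted p = 0.00201) and the retinoid receptor gene Rxra by 0.25 (adjusted p = 0.013). Gata3, Eya1 and Foxe3 were the other 3 that fell. Pax6, the master regulator of eye development, rose by 0.41 (adjusted p = 0.00531), and Meis1, a homeobox factor known to act on Pax6, by 0.44 (adjusted p = 0.00132). Prox1 (0.13, adjusted p = 0.0949) and the heat shock factor Hsf4 (-0.05, adjusted p = 0.612) did not pass. The 10 calls lower and 2 higher were found again in number when any single P0 array was left out. With the retina markers as a covariate, Pitx3 (adjusted p = 0.131), Rarb (0.13) and Six3 (0.0552) were not called. Rxra was not called with spiked-in centring (0.13), nor Meis1 with all 20 arrays in 1 fit (0.0546). Those 3 fits called 2974, 5471 and 8091 of all 23865 tested probe sets. Sox1, Sox2, Maf and Pax6 kept their calls in every alternative run.

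Several of these factors are also made by lens epithelium or retina, and markers of other cells moved with them. At P0 all 5 lens epithelium markers were called lower in TKO lenses (median -1.45), Foxe3 being in both lists, beside 19.7% of all tested probe sets. Of 10 tested retina markers 8 were higher (median 1.57), as were 5 of 6 pigment cell markers (median 1.86) and 3 of 6 macrophage markers (median 0.90). Among all tested probe sets 18.8% were called higher. The mean level of the epithelium markers was 6.73 to 8.22 in TKO and 8.53 to 9.10 in control lenses. The mean level of the retina markers was 5.99 to 7.14 in TKO and 4.52 to 5.97 in control lenses. With the retina markers as a covariate, 4 regulators were lower and 2 higher, beside 2974 of all 23865 tested probe sets called in either direction. At P0 the retina marker level of every TKO array lay above that of every control array. This fit therefore cannot tell retina content apart from genotype. The part of these other cell types in the regulator values was not tested further.

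At E17.5 the same list held 1 regulator called higher and 1 lower of 16, beside 4.43% and 2.2% of all tested probe sets. Prox1, which drives fibre cells out of the cell cycle and activates crystallin genes, read 9.43, 9.28, 9.44, 9.35 and 9.30 in controls. In TKO lenses it read 10.09, 9.69, 9.76, 10.01 and 9.58, all above the controls (0.46 ± 0.10 SE, adjusted p = 0.025). Rxra was lower by 0.27 (adjusted p = 0.0463). Neither was called when any single control array or TKO replicate 26 was left out, and Rxra was not without TKO replicate 24 either. Both calls were also lost with arrays centred on their medians (adjusted p = 0.0527 and 0.0737) and with spiked-in centring (0.102 and 0.276). That of Rxra was lost with no filter (0.0622), with 1 probe set a gene (0.0579), with the retina covariate (0.065) and without TKO replicates 24 and 27 together (0.0529). Sox1 read 9.81 to 9.93 in controls and 9.61, 9.02, 9.24, 9.73 and 8.15 in TKO lenses, without overlap and without a call (-0.73 ± 0.25 SE, adjusted p = 0.0938). Maf (-0.57, adjusted p = 0.116), Pax6 (0.57, adjusted p = 0.0899), Pitx3 (-0.47), Hsf4 (-0.35), Meis1 (0.37), Rarb (0.40, adjusted p = 0.0502), Six3 (-0.16) and Sox2 (-0.10) were not called. With all 20 arrays in 1 fit, Sox1 (adjusted p = 0.0149), Maf (0.0375), Pax6 (0.0187) and Rarb (0.03) were called. That fit had 3 regulators higher and 3 lower of 16, beside 3735 of all 23865 tested probe sets called in either direction. Rarb was also called with the stricter filter at the 75th percentile (0.041). Without TKO replicates 24 and 27, 4 regulators were higher and 3 lower, beside 5488 of all 23865 tested probe sets called in either direction. Of the 16, Rarb alone had a TKO effect that differed between the stages (-0.96 ± 0.17 SE, P0 minus E17.5, adjusted p = 0.025).

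Other crystallins and fibre genes give the setting of the same samples. None of 8 alpha and beta crystallins was called at E17.5, where Crybb2 stood at 0.81 ± 0.44 (SE) and Cryab at -0.15. At P0 Crybb2 was the 1 of 8 called, higher by 0.35 ± 0.13 (SE, adjusted p = 0.0492) beside 18.8% of all tested probe sets, and the call was lost in 8 of the 10 fits that left out 1 array. It was also lost with quantile normalization (adjusted p = 0.0747), median centring (0.0577), no filter (0.0677), all 20 arrays in 1 fit (0.457) and spiked-in centring (0.0586). Cryab (-0.12), Crybb3 (-0.05), Cryba4 (-0.03) and Crybb1 (-0.02) did not pass in the main fit. When the spread followed the height of the signal, Cryab (adjusted p = 0.00986) and Crybb3 (0.0454) were called lower. That fit called 9320 of all 23865 tested probe sets. The exact permutation test gave an unadjusted p of 0.00794 for Cryab, Crybb3 and Cryba4 and of 0.0238 for Crybb1. The Crybb1 probe set was the highest or near the highest of the arrays, at 14.81 to 15.01.

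Of 9 lens fibre genes tested, none was called at E17.5, with Gja3 at -0.42 ± 0.19 (SE), Birc7 at -0.19, Bfsp2 at -0.14, Lim2 at -0.10 and Dnase2b at -0.10. At P0, 2 of the 9 were lower, a share near the 19.7% of all tested probe sets called lower. Gja3, which encodes a gap junction protein of fibre cells, was lower by 0.42 ± 0.06 (SE, adjusted p = 0.000717), with 11.89 to 12.08 in controls and 11.44 to 11.67 in TKO lenses. Dnase2b, the nuclease that degrades DNA of maturing fibre nuclei, was lower by 0.40 ± 0.12 (SE, adjusted p = 0.0223), and this call was lost without control replicate 6 or 8 or TKO replicate 18, with all 20 arrays in 1 fit (adjusted p = 0.0618), with the retina covariate (0.113) and with spiked-in centring (0.0668). Lim2 (-0.08), Bfsp2 (-0.03) and Birc7 (0.10) did not pass in the main fit. Lim2 was called lower when the spread followed the height of the signal (adjusted p = 0.0147), and 3 of the 9 were then lower. That fit called 9320 of all 23865 tested probe sets in either direction. The exact permutation test gave an unadjusted p of 0.00794 for Lim2. Between the stages in control lenses 8 of 9 fibre genes and 2 of 8 alpha and beta crystallins were called higher, beside 12.8% of all tested probe sets. Crybb2 rose by 2.53 and Cryab by 0.27. The called fibre genes ranged from 0.13 (Lim2), 0.16 (Bfsp1) and 0.17 (Gja3) to 0.43 (Dnase2b), in a comparison in which the spiked-in mean rose by 0.14. With spiked-in centring 3 of the 9 fibre genes and 1 of the 8 alpha and beta crystallins were called higher, and with all 20 arrays in 1 fit 2 of the 9 fibre genes. Those fits called 10197 and 3540 of all 23865 tested probe sets in either direction.

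**Figure D5:**
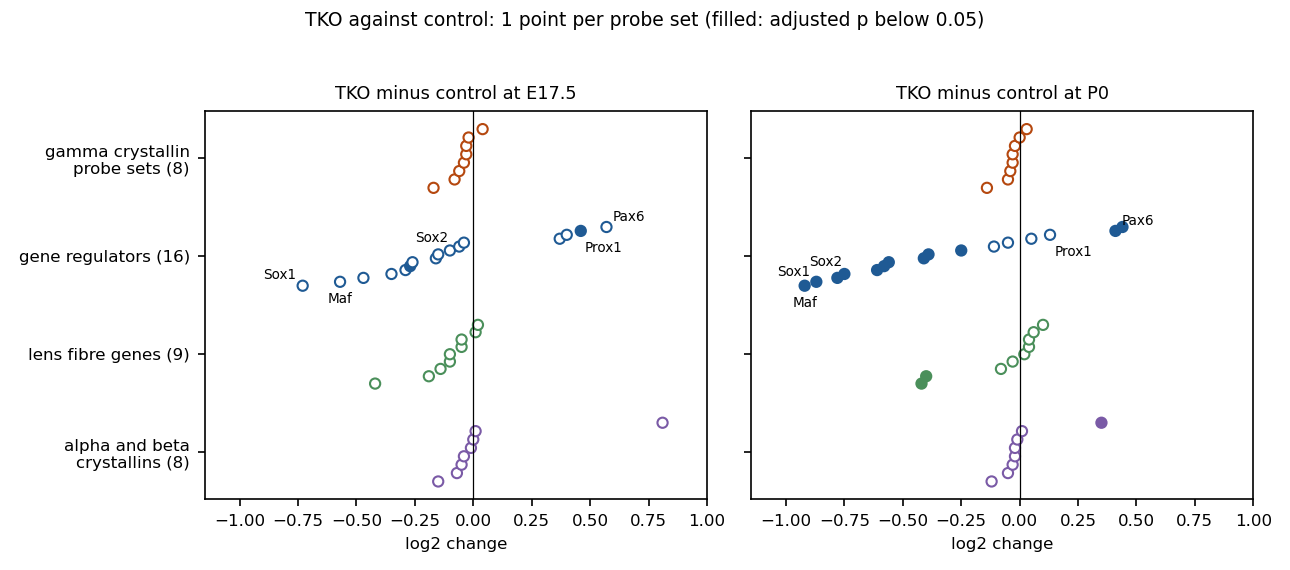
Log2 change of TKO against control (horizontal) at E17.5 and P0 for the 8 gamma crystallin probe sets, 16 regulators of crystallin genes, 9 lens fibre genes and 8 alpha and beta crystallins, 1 point per probe set. Gamma crystallin points lie between -0.17 and 0.04 in both panels with none filled, and 10 regulators lie below 0 as filled points at P0, Maf lowest at -0.92.

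The targeted genes themselves give no check of the labels here. The E2f1 probe set (1417878_at) read 7.21 ± 0.04 in control and 7.81 ± 0.17 in TKO lenses at E17.5 (SD, n = 5), and 7.34 ± 0.14 and 7.79 ± 0.14 at P0, called higher at both stages (adjusted p = 0.00313 and 0.00289). E2f2 (-0.09 and -0.04) and E2f3 (-0.07 and -0.06) were not called. The annotation does not say whether these probe sets lie in the deleted parts of the genes, so the genotype of each lens rests on its label. In RNA quality, the 5′ minus 3′ difference of the Gapdh control probe sets was 0.100 to 0.200 in the TKO arrays and -0.06 to 0.06 in the controls. Every TKO array thus lay above every control array at both stages. This difference cannot be told apart from genotype, and its part in the TKO comparisons was not tested.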

How the data were processed

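Lens RNA was measured on 20 Affymetrix arrays, 5 in each of 4 groups taken from the sample labels. The deposited values are log2 expression values, as their range shows, with 1 value for each probe set on each array. The authors' background correction, summary and normalization were not given in the sources used here. Genes were named from the platform annotation, in which 34945 of 45037 non-control probe sets name 1 gene, 932 several and 9160 none. No array was a copy of another (equal values in 0.142% of probe sets at most).

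Values were used as deposited. Each comparison was fitted with limma 3.58.1 (R 4.3.3; lmFit and eBayes) on the 10 arrays of the 2 groups compared, because earlier results showed unequal spread between groups. The difference of effects used all 20 arrays. Probe sets above the array median in at least 5 of 20 arrays were tested (23865), all tests were two-sided, and the fit was tested on simulated data. All gamma crystallin probe sets are described. Of the other lists, with 1 probe set a gene (the highest mean), Sox1, Sox2, Maf, Prox1, Pax6, Hsf4 and Pitx3 were named always, and up to 4 genes a list and knockout comparison by smallest adjusted p. Gata3, Eya1 and Foxe3 complete a count, E2f1, E2f2 and E2f3 are the targeted genes, and 8 genes were named for likeness. The members and lists were chosen with earlier results of these data known. Promoter identity is the share of equal letters in end-free alignments of 90 bases (Biopython 1.88). For arrays, their number limits the precision.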

Additional observations from a re-analysis of the deposited data

Results flagged for a closer look

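Within groups of 5 arrays, the highest or lowest value was compared with its nearest neighbour by Dixon's criterion. Chance flags about 1 in 20 groups, and 3 of 32 groups of gamma crystallin values were flagged. TKO E17.5 replicate 28 was the lowest of its group for the probe set of Crygc and Crygb, at 14.60 with the next at 14.68 (gap over range 0.76). It was also the lowest for the Crygf probe set, at 13.94 with the next at 14.01 (0.752). Control P0 replicate 5 was the lowest for Crygn, at 14.29 with the next at 14.32 (0.807), a group whose other 4 values were equal to 2 decimals.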

How the results depend on the processing

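In both knockout comparisons and in the difference of effects, 0 gamma crystallin probe sets were called under the alternatives run, with 2 exceptions: 1 at E17.5 without TKO replicates 24 and 27 together, and 0 to 1 at P0 when single arrays were left out. In the control stage change, 6 were called with the spread following the signal height, 2 with retina markers as a covariate (Crygs and 1454333_at, -0.16) and 1 under the others. The first 2 of these fits called 8149 and 7249 of all 23865 tested probe sets. In TKO lenses 1 was called with all 20 arrays in 1 fit and 1 with the spread following the signal height, and 0 otherwise. Of all tested probe sets, 1582 were called at E17.5, 903 with the retina covariate, 461 with spiked-in centring (an alternative chosen after seeing the data) and 5488 without TKO replicates 24 and 27. At P0 9198 were called, 2974 with the retina covariate and 5471 with spiked-in centring. With all 20 arrays in 1 fit, 3735 were called at E17.5, 3540 rather than 7951 between control stages and 7831 rather than 3498 between TKO stages. The difference of effects had 96 calls, 6 with spiked-in centring and 460 without TKO replicates 24 and 27. Where a value below changed, the cause was not tested.

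The median change at P0 was -0.02 after quantile normalization, -0.05 with arrays centred on their medians, -0.05 with the retina covariate and 0.00 with spiked-in centring. In control lenses between the stages it was 0.02 after quantile normalization, 0.03 with median centring and -0.09 with spiked-in centring. In TKO lenses between the stages spiked-in centring gave -0.05.

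The reversals below concern values that were not called. With spiked-in centring the control stage change was -0.07 for Crygd, -0.09 for Cryga, -0.09 for Crygb, -0.12 for the probe set of Crygc and Crygb, -0.13 for Crygn and -0.06 for Crygf. In TKO lenses it was -0.05 for Crygd, -0.08 for Cryga, -0.04 for Crygb, -0.10 for the probe set of Crygc and Crygb, -0.02 for Crygn and -0.04 for Crygf. At P0 it turned the probe set of Crygc and Crygb to 0.01, Crybb1 to 0.01 and Bfsp2 to 0.01. In the difference of effects it gave 0.01 for Crygd, 0.01 for Crygs, 0.01 for Cryga and 0.02 for Crygf. Quantile normalization turned the control stage change of Crygn to -0.06 and of Crygb to -0.02, and the difference of effects of Crygd to 0.02 and of Cryga to 0.02. Median centring gave -0.01 for Crygn between control stages, and -0.01 for Cryga and -0.03 for the probe set of Crygc and Crygb between TKO stages. The retina covariate gave 0.03 for Dnase2b at E17.5 and 0.03 for Crygs in the difference of effects. Without TKO E17.5 replicates 24 and 27, Crygs stood at -0.01 at E17.5, 1454333_at at 0.16 between TKO stages, and the differences of effects at 0.02 for Crygd, 0.04 for Crygs and 0.01 for Cryga.

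With single arrays left out, Sox2 ranged from -0.28 to 0.14 and Dnase2b from -0.25 to 0.01 at E17.5, and Bfsp2 from -0.06 to 0.03 at P0. Between TKO stages 1454333_at ranged from -0.25 to 0.08. In the difference of effects Crygs ranged from -0.04 to 0.03, Crygf from -0.02 to 0.01 and 1454333_at from -0.13 to 0.20. Regulators called lower at P0 numbered 10 in every fit without 1 array, 4 with the retina covariate and 7 with spiked-in centring.

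No paired analysis was possible because the groups share no replicate number. The number of arrays and the height of the signal limit the precision.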
